A study of Drosophila melanogaster with 9 samples.

Results

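Serpin protease inhibitor genes were followed across 3 genotypes of the Drosophila melanogaster wing disc, the larval epithelium that forms the adult wing. They were all entries whose symbol starts with Spn and a digit, together with necrotic (nec), which made 28 genes of 14168 entries. The members were chosen by symbol, with no measured value in the rule. The family itself was selected on earlier results, the fold changes of its members in the same comparisons, so the p-values below are those the fit over all genes returned, are no independent support, and are given for single genes and not for the family. All 28 entries carried the annotation of a serine-type endopeptidase inhibitor and of an extracellular product in the deposited table. After a filter on low counts, 13 of the 28 were among the 8487 genes tested, and the other 15 were at or near 0.

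Polyadenylated RNA was sequenced from pools of 100 discs from larvae of the third instar, with 3 biological replicates of each genotype. Every genotype carried the en-GAL4 driver, which acts in the posterior compartment of the disc. Control discs had the driver alone (en-GAL4/+, in columns the deposited table names en_w1118, w1118 being a standard laboratory strain), NAT10 RNAi discs (en-GAL4 > NAT10-RNAi) also expressed RNA interference against NAT10, and double RNAi discs expressed both NAT10-RNAi and Xrp1-RNAi. The design asks how much of the transcript change after loss of NAT10, an RNA acetyltransferase, needs the stress-response transcription factor Xrp1. Because whole discs were extracted, each library mixes targeted posterior cells with untargeted anterior cells, and fewer cells of a type cannot be told apart from less RNA per cell.

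Serpins are suicide inhibitors. A protease cleaves an exposed loop of the serpin, and the serpin then changes its fold and traps the enzyme in a covalent complex. In flies, secreted serpins hold back the protease cascades that activate the Toll receptor and the phenoloxidases that make melanin, and the genes are named after the chromosome band in which they lie.

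The libraries held 14183856 to 19949448 estimated counts. The fly NAT10 gene, l(1)G0020, was at 101 ± 1.36 normalised CPM (a library-scaled count rate; mean ± SD, n = 3) in control, 62.2 ± 0.917 in NAT10 RNAi discs and 74.7 ± 2.69 in double RNAi discs. Xrp1 was at 521 ± 8.80, 941 ± 15.0 and 409 ± 14.4. The NAT10 transcript was itself higher in double RNAi discs than in NAT10 RNAi discs (log2 fold change 0.26, adjusted p = 7.11e-06 in edgeR's quasi-likelihood test). No genotype carried Xrp1-RNAi alone. The part of this NAT10 difference in the serpin values was not tested. All 10 listed markers of the disc epithelium had counts in every genotype, and their summed level was 4262 to 4463 normalised CPM in control, 3391 to 3415 in NAT10 RNAi discs and 4234 to 4279 in double RNAi discs. Of these 10, 1 was higher and 9 lower than control in NAT10 RNAi discs (32.5% and 29.6% of all tested genes). In double RNAi discs 1 was higher and 2 were lower (15.7% and 15.5%). Summed markers of fat body, an organ that secretes serpins, were at 14.7 to 17.0 in control, 65.3 to 73.4 in NAT10 RNAi discs and 1330 to 1377 in double RNAi discs. Of the 7 markers, 6 were higher than control in NAT10 RNAi discs (32.5% of all tested genes) and 7 in double RNAi discs (15.7%), and none was at 0. Hemocyte markers summed to 68.0 to 71.3, 52.2 to 55.9 and 53.3 to 55.02, of which crq had group means of 41.8, 37.5 and 36.6. Of 11 tested hemocyte markers, 5 were lower than control in NAT10 RNAi discs (29.6% of all tested genes) and 3 in double RNAi discs (15.5%). None was higher than control in either genotype. Muscle markers summed to 77.0 to 79.2, 43.6 to 47.7 and 44.5 to 47.7, of which Act57B had group means of 41.1, 11.1 and 25.8. Of the 7 muscle markers, 6 were lower than control in NAT10 RNAi discs (29.6% of all tested genes) and 7 in double RNAi discs (15.5%). The exception, Mlc2, was higher in NAT10 RNAi discs, at 27.0 ± 1.15 against 14.7 ± 0.347. Salivary gland markers summed to 212 to 228, 74.1 to 79.3 and 144 to 154, nearly all of it CrebA, with group means of 219, 76.1 and 149. The salivary glue genes (Sgs) had group means of at most 0.426 and were not tested, Sgs4 was at 0 in control, and Sgs7 and Sgs8 were at 0 with NAT10 RNAi. The gland regulator fkh was at 0 in both of these genotypes and at 0.653 ± 0.0867 in double RNAi discs. The part of these tissues in the serpin values was not tested.

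In NAT10 RNAi discs the serpin genes went in both directions. Spn100A and Spn43Aa fell 141-fold and 11.6-fold, whereas the 4 tested genes of the 42D cluster, nec, Spn47C, Spn28Dc and Spn27A rose. With Xrp1 RNAi added, Spn100A and Spn43Aa were 84.0-fold and 8.82-fold above their NAT10 RNAi level, and the 4 tested 42D genes, nec and Spn47C were below theirs. A gene is called changed at an adjusted p under 0.05 in edgeR's quasi-likelihood test, adjusted over all genes tested. By that measure 8 of the 13 tested serpin genes were higher in NAT10 RNAi discs than in control, where 32.5% of all tested genes were, and 2 were lower, where 29.6% were. The median log2 fold change was 0.45 over the 13 serpin genes and 0.03 over all genes tested. A change of at least 2-fold was reached by 4 serpin genes upwards (6.73% of all genes) and 2 downwards (4.37%). Among the genes counted as higher, and as at least 2-fold higher, are nec and Spn42Db, which reached the filter level in 2 and 1 of the control libraries and in all NAT10 RNAi and double RNAi libraries. They were tested only through the genotypes where they are high, so the counts and medians over the 13 are a description and support nothing. The libraries of NAT10 RNAi discs did not overlap with those of control for 10 of the 13, and that held for 65.6% of all genes.

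Fewer serpin genes differed from control in double RNAi discs, where 2 were higher (15.7% of all genes) and 4 lower (15.5%), and the median log2 fold change of the 13 was -0.01, against 0.00083 over all genes. Only Spn42Db among them was called with a change of at least 2-fold, upwards (3.9% of all genes), and no tested serpin gene fell that far (0.683%). The libraries of 9 of the 13 did not overlap with those of control (42.4%). Against NAT10 RNAi discs, double RNAi discs had 2 serpin genes higher (28.4% of all genes) and 7 lower (28.3%), with a median log2 fold change of -0.21 against -0.01 over all genes. Of these, 2 rose at least 2-fold (5.76% of all genes) and 3 fell as far (4.81%), and 10 of the 13 did not overlap between these genotypes (63%). Both comparisons with control use the same 3 control libraries, and the NAT10 RNAi libraries also enter the comparison of both RNAi genotypes.

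**Figure D1:**
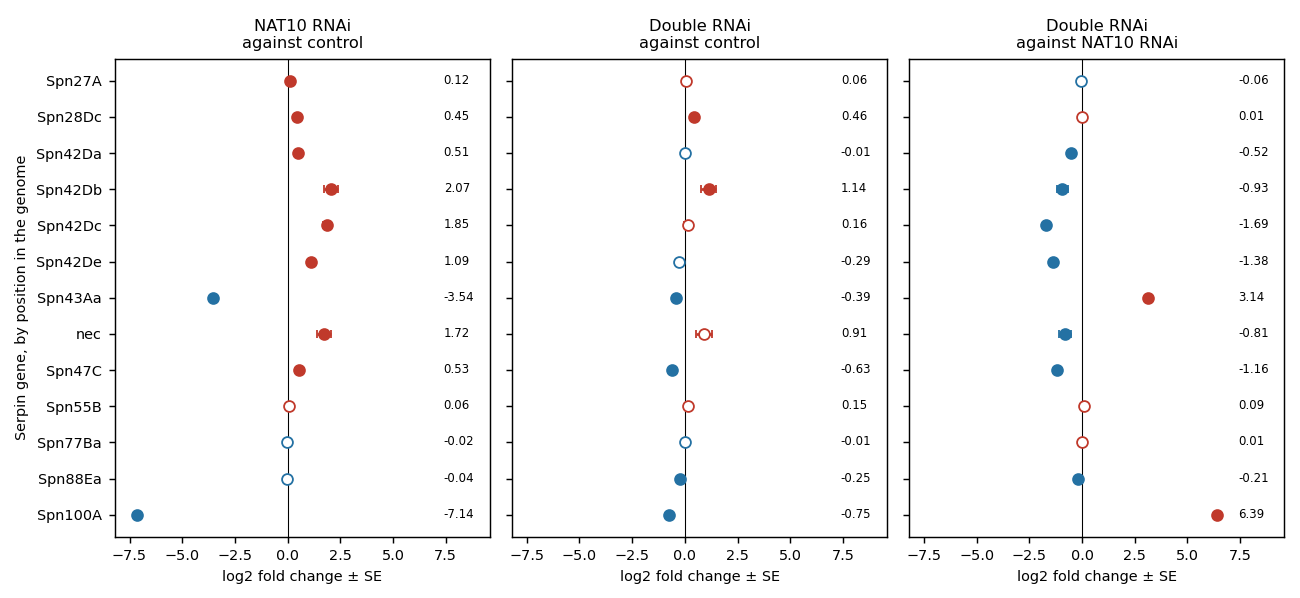
Log2 fold change ± SE (horizontal axis) of the 13 tested serpin genes, ordered by position in the genome, in the 3 comparisons; red is higher, blue lower, and open symbols did not pass an adjusted p under 0.05. Spn100A (-7.14) and Spn43Aa (-3.54) lie far left in NAT10 RNAi discs and far right in the comparison of both RNAi genotypes, and the 4 genes of 42D lie to the right in the former and to the left in the latter.

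The serpin genes differed widely in level. On the FPKM scale, which divides by transcript length, Spn43Aa was the highest in control at 280 ± 1.93, followed by Spn27A at 161 ± 5.67, Spn77Ba at 97.8 ± 2.96, Spn88Ea at 91.1 ± 0.425 and Spn100A at 63.2 ± 0.471. Spn42Da, at 33.1 ± 2.31 FPKM, and Spn55B, at 16.4 ± 0.813, came next. Spn28Dc (13.96 ± 1.26 FPKM) and Spn47C (12.4 ± 0.543) could not be ordered, since their libraries overlapped. Spn42De (5.24 ± 0.677 FPKM) and Spn42Dc (1.54 ± 0.190) were lower, and nec (0.458 ± 0.171) and Spn42Db (0.368 ± 0.0143) were lowest and overlapped.

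The order of FPKM in NAT10 RNAi discs changed at its top and its end. Spn27A stood first at 177 ± 9.33, Spn43Aa was the fifth at 24.4 ± 1.22, and Spn100A was last of the 13 at 0.447 ± 0.122. Spn28Dc, Spn47C and Spn55B lay next to each other between 16.8 and 19.8 FPKM, and each overlapped its neighbour in that order. The first 6 places in double RNAi discs were held by the same genes in the same order as in control, led by Spn43Aa at 217 ± 3.95 FPKM.

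Summed over the family, the level was 778 ± 12.3 FPKM in control, 512 ± 12.7 in NAT10 RNAi discs and 692 ± 5.93 in double RNAi discs. Spn43Aa supplied 36.0% ± 0.487 of this sum in control, 4.76% ± 0.124 in NAT10 RNAi discs and 31.4% ± 0.324 in double RNAi discs. Without Spn43Aa and Spn100A, the sum was 434 ± 10.9 FPKM in control, 487 ± 11.6 in NAT10 RNAi discs and 437 ± 2.74 in double RNAi discs. The sum was thus lowest in NAT10 RNAi discs with these genes included and highest there without them, and in each case its libraries lay outside the range of control. The 42D genes supplied 5.18% ± 0.253 of the FPKM sum in control, 13.0% ± 0.237 in NAT10 RNAi discs and 5.93% ± 0.127 in double RNAi discs.

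**Figure D2:**
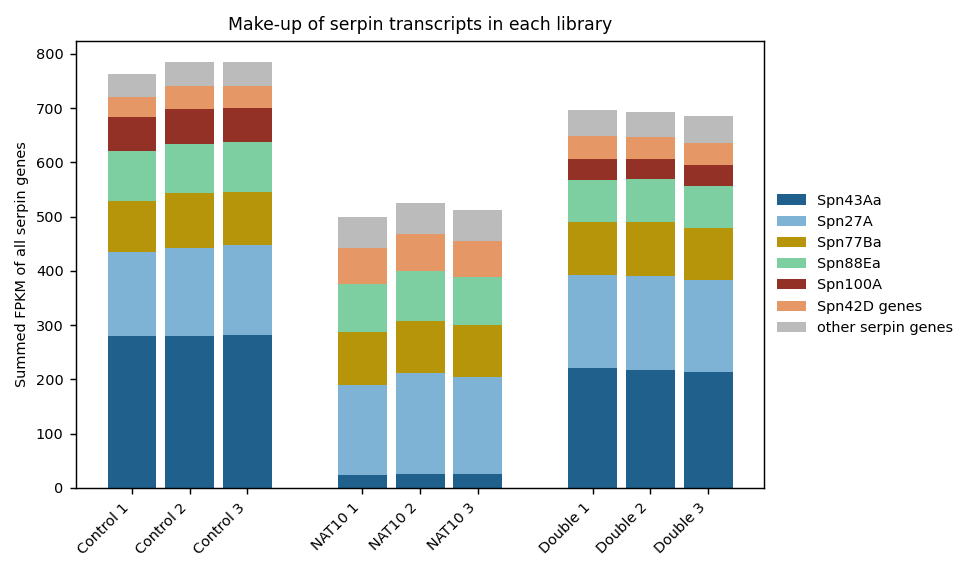
Summed FPKM of all 28 serpin genes in each of the 9 libraries (one bar a library), divided by gene, with the 5 genes of 42D summed. The Spn43Aa segment is short in the 3 NAT10 RNAi bars, where it makes up 4.62% to 4.86% of the sum.

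The 42D cluster holds 5 serpin genes within 12.4 kb of chromosome arm 2R (6875906 to 6888262 in the BDGP6.54 annotation), and the 4 that were tested rose together in NAT10 RNAi discs. Spn42Da (FBgn0265137), an inhibitor of furin-type proprotein convertases with alternative reactive loops, is the most expressed of them per length. It was at 48.8, 56.0 and 52.02 normalised CPM in the control libraries, 74.5, 74.6 and 74.3 in NAT10 RNAi discs and 52.9, 49.7 and 53.0 in double RNAi discs. NAT10 RNAi discs lay above both other genotypes, which overlapped. On the log2 scale it rose by 0.51 ± 0.050 with NAT10 RNAi (edgeR adjusted p = 1.18e-09), and its fold change was -0.01 ± 0.051 in double RNAi discs (adjusted p = 0.936) and -0.52 ± 0.049 between the RNAi genotypes (adjusted p = 7.8e-10). The direction against control in double RNAi discs turned under 3 of the alternative settings, none of which called it.

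Spn42Db (FBgn0033112) had the largest fold change of the cluster in NAT10 RNAi discs and, in FPKM, the lowest mean control level of the tested family, within the range of the nec libraries. It was at 0.557, 0.568 and 0.527 normalised CPM in control, 2.23, 2.24 and 2.50 in NAT10 RNAi discs and 1.21, 0.769 and 1.65 in double RNAi discs. The 3 genotypes did not overlap, with double RNAi discs between the others and the most spread. It was 4.19-fold higher in NAT10 RNAi discs (log2 2.07 ± 0.33, edgeR adjusted p = 4.68e-06) and 2.20-fold higher in double RNAi discs (log2 1.14 ± 0.36, adjusted p = 0.0169). Between the RNAi genotypes its log2 fold change was -0.93 ± 0.27 (adjusted p = 0.00463). The call in double RNAi discs was lost without control replicate 3 (adjusted p = 0.0542) and without double RNAi replicate 3 (adjusted p = 0.121). Of its exon bases 25.6%, and of those of Spn42Da 10.5%, overlap the antisense gene asRNA:CR44169, and the library kit does not mark strand, so reads from the partners cannot be told apart.

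Spn42Dc (FBgn0033113) was at 2.84, 2.27 and 2.34 normalised CPM in control, 8.07, 8.89 and 10.1 in NAT10 RNAi discs and 3.36, 2.69 and 2.31 in double RNAi discs. The NAT10 RNAi libraries were the highest, and the other genotypes overlapped. It rose 3.595-fold in NAT10 RNAi discs (log2 1.85 ± 0.17, edgeR adjusted p = 3.41e-10) and did not pass in double RNAi discs (log2 0.16 ± 0.20, adjusted p = 0.599, with a sign that turned without double RNAi replicate 1). Between the RNAi genotypes the log2 fold change was -1.69 ± 0.16 (adjusted p = 8.19e-10). The roles of Spn42Db, Spn42Dc and Spn42De are not stated here beyond their annotation as inhibitors.

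Spn42De (FBgn0033115) was at 6.24, 7.31 and 8.08 normalised CPM in control, 15.8, 15.7 and 14.4 in NAT10 RNAi discs and 6.07, 6.04 and 5.51 in double RNAi discs. NAT10 RNAi discs were again the highest, and every double RNAi library was below every control library. It was 2.12-fold higher in NAT10 RNAi discs (log2 1.09 ± 0.11, edgeR adjusted p = 2.14e-09) and lower in double RNAi discs than in NAT10 RNAi discs (log2 -1.38 ± 0.11, adjusted p = 2.8e-11). Against control double RNAi discs missed the threshold (log2 -0.29 ± 0.12, adjusted p = 0.0731) and passed it without control replicate 1 (adjusted p = 0.0259). The fifth gene of the cluster, Spn42Dd, is a repressor of Toll activation and was not tested, with at most 1.15 normalised CPM in a library.

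The genes beside the 42D cluster, looked up after the serpin values were known, gave mixed values. The actin regulator coro, 3.19 kb before the first serpin gene, had a log2 fold change of 0.04 ± 0.033 in NAT10 RNAi discs (edgeR adjusted p = 0.365). CG3358, the next tested gene on the other side, starts 47.5 kb from the start of the first serpin gene. It rose by 0.36 ± 0.065 (adjusted p = 2.34e-05), and mim after it changed by -0.46 ± 0.044 (adjusted p = 1.1e-09). CG9447 and CG30158, which lie next to the cluster, were not tested and had group means of at most 0.324 normalised CPM.

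In band 43A, where 4 serpin genes lie within 10.6 kb of 2R (7147692 to 7158241), the tested pair moved in opposite directions. Spn43Aa (FBgn0024294) was at 365.7, 364 and 368 normalised CPM in control, 29.9, 33.1 and 31.7 in NAT10 RNAi discs and 282, 277 and 276 in double RNAi discs. The genotypes were fully separate, with NAT10 RNAi discs far below the others. It fell 11.6-fold in NAT10 RNAi discs (log2 -3.54 ± 0.035, edgeR adjusted p = 8e-31), which ranked 43rd among all decreases by fold. In double RNAi discs it was also lower than in control (log2 -0.39 ± 0.028, adjusted p = 1.24e-11), and double RNAi discs were 8.82-fold above NAT10 RNAi discs (log2 3.14 ± 0.036, adjusted p = 1.07e-29).

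The necrotic gene nec (FBgn0002930), whose product restrains Toll activation through the protease Persephone, lies 8.79 kb from the start of Spn43Aa. It was at 0.446, 0.994 and 0.820 normalised CPM in control, 2.92, 2.18 and 2.22 in NAT10 RNAi discs and 1.76, 0.714 and 1.65 in double RNAi discs. NAT10 RNAi discs were above both others, while double RNAi discs reached into the control range through replicate 2. It rose 3.29-fold in NAT10 RNAi discs (log2 1.72 ± 0.34, edgeR adjusted p = 9.1e-05). In double RNAi discs it missed the threshold against control (log2 0.91 ± 0.37, adjusted p = 0.0623) and passed it without double RNAi replicate 2 (adjusted p = 0.0122) or control replicate 2 (adjusted p = 0.0490). It was lower than in NAT10 RNAi discs (log2 -0.81 ± 0.29, adjusted p = 0.0191), a call lost without NAT10 RNAi replicate 1 (adjusted p = 0.118) or double RNAi replicate 2 (adjusted p = 0.141).

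Around band 43A, nec, Spn43Ab and Spn43Ad lie in introns of the planar polarity gene pk. The log2 fold change of pk was -0.85 ± 0.054 in NAT10 RNAi discs (edgeR adjusted p = 8.77e-12), opposite in sign to that of nec. On the side of Spn43Aa, Cyp9b2 had -4.48 ± 0.69 (adjusted p = 3e-06) at 1.02 normalised CPM in control, and esn had -0.76 ± 0.036 (adjusted p = 5.64e-16). These neighbours too were looked up after the serpin values were known.

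**Figure D3:**
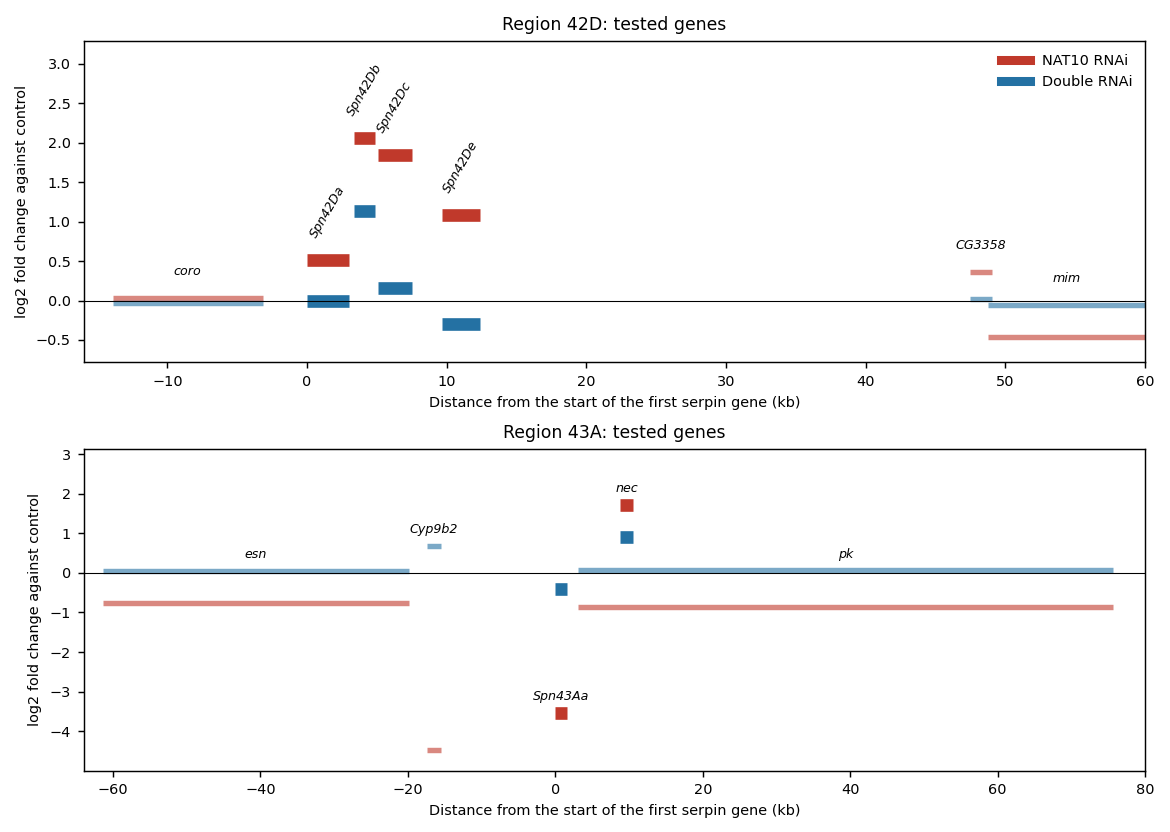
Log2 fold change against control (vertical axis) of the tested genes in and around the 42D and 43A serpin clusters, drawn along their distance in kb from the start of the first serpin gene (thick bars serpin genes, thin bars other genes, cut at the plot's edges). The 4 serpin genes of 42D sit above 0 in NAT10 RNAi discs beside coro near 0, and in 43A Spn43Aa lies below 0 and nec above it.

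Spn100A (FBgn0039795, chromosome arm 3R, 30690642 to 30692768 in BDGP6.54) had the largest fold change among the tested serpin genes. It was at 129.3, 129.9 and 130.5 normalised CPM in control, 1.14, 0.648 and 0.944 in NAT10 RNAi discs and 76.6, 76.9 and 78.8 in double RNAi discs. The NAT10 RNAi libraries thus kept 0.702% of the control mean, from 11 to 20 counts a library, and double RNAi discs lay between. NAT10 RNAi lowered it by a log2 fold change of -7.14 ± 0.086 (141-fold, edgeR adjusted p = 4.44e-29), the third largest decrease among all genes tested. DESeq2's Wald test gave -7.17 with a larger SE of 0.213, and the alternative settings ran from -7.35 to -6.97. In double RNAi discs it fell by 0.75 ± 0.042 against control (adjusted p = 1.03e-13) and was 84.0-fold above NAT10 RNAi discs (log2 6.39 ± 0.092, adjusted p = 2.14e-27). The deposited annotation places Spn100A and Spn47C, alone among the tested members, in multicellular organism reproduction, a term held by 13 of the 28.

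Spn47C (FBgn0033574) moved in opposite directions in the RNAi genotypes. It was at 18.4, 18.7 and 16.9 normalised CPM in control, 27.2, 26.5 and 24.4 in NAT10 RNAi discs and 11.4, 11.97 and 11.5 in double RNAi discs. The 3 genotypes did not overlap, and double RNAi discs were the lowest. Against control it rose by 0.53 ± 0.077 on the log2 scale in NAT10 RNAi discs (edgeR adjusted p = 1.12e-06) and fell by 0.63 ± 0.083 in double RNAi discs (adjusted p = 1.3e-06). The difference between the RNAi genotypes was itself called, with a log2 fold change of -1.16 ± 0.079 (adjusted p = 1.53e-12).

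**Figure D4:**
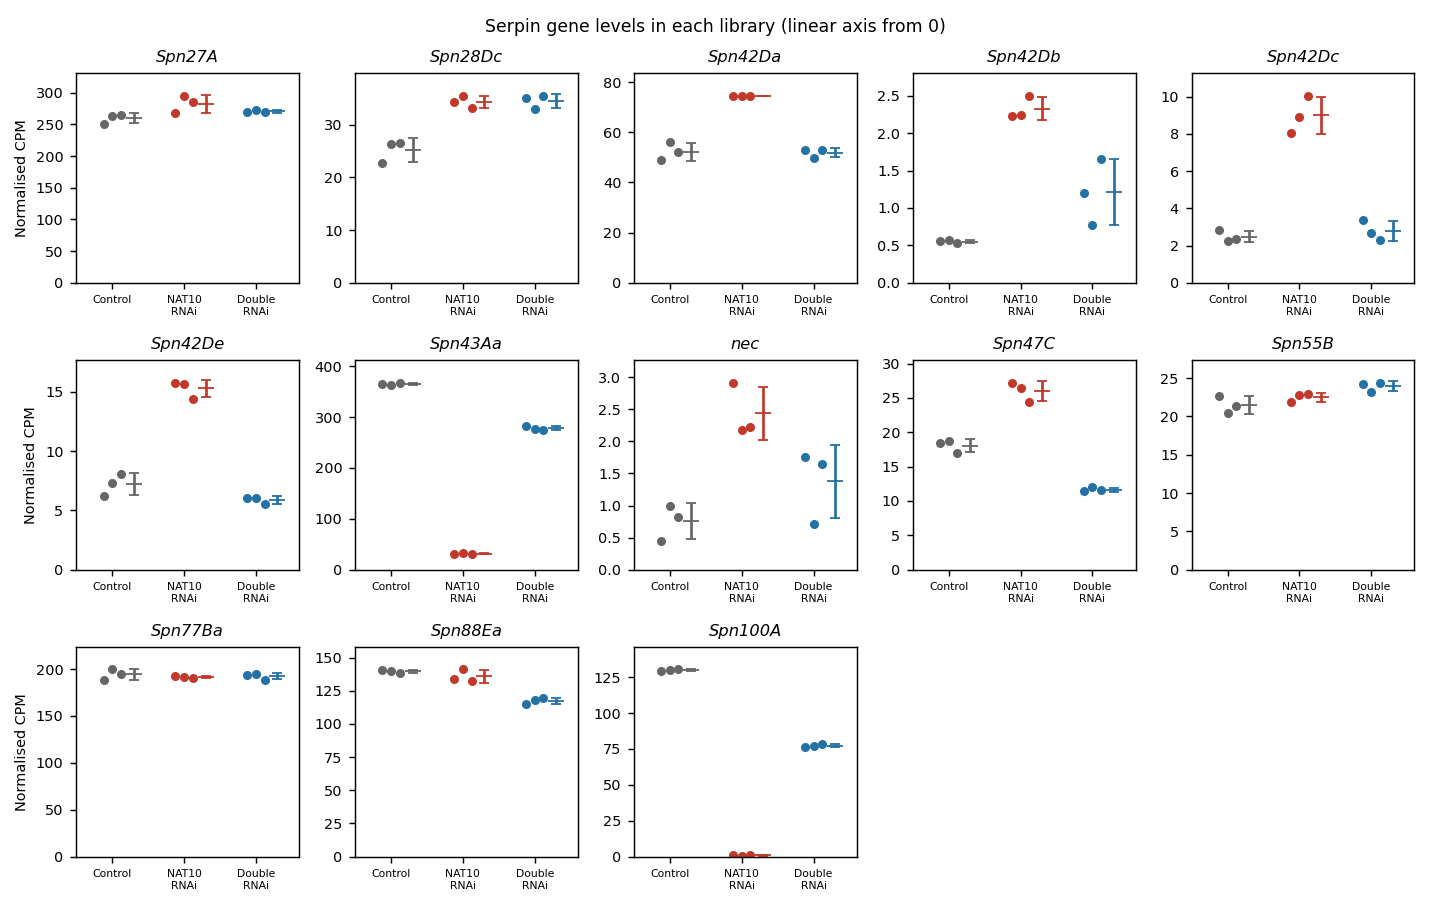
Normalised CPM (vertical axis, linear from 0, scaled separately for each gene) of the 13 tested serpin genes in each library; points are the 3 libraries of a genotype and the bar beside them is mean ± SD. Spn100A and Spn43Aa are lowest in NAT10 RNAi discs, the 42D genes are high there, and Spn47C is highest in NAT10 RNAi discs and lowest in double RNAi discs.

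Spn27A, Spn28Dc, Spn77Ba and Spn88Ea, known as inhibitors in the Toll and melanin cascades, had log2 fold changes of at most 0.46 in size in any comparison. Spn27A (FBgn0028990), which blocks the protease that activates prophenoloxidase and, in the embryo, the Toll-activating protease Easter, was at 251 to 265 normalised CPM in control, 267 to 295 in NAT10 RNAi discs and 269 to 273 in double RNAi discs. Its rise in NAT10 RNAi discs was small (log2 0.12 ± 0.032, edgeR adjusted p = 0.00192) and did not pass without NAT10 RNAi replicate 2 (adjusted p = 0.0794). With Xrp1 RNAi added, its log2 fold change against control was 0.06 ± 0.032 (adjusted p = 0.164), and 0.0492 was its adjusted p with scaling by total counts alone.

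Spn28Dc (FBgn0031973), a regulator of phenoloxidase after wounding, was higher than control in both RNAi genotypes. It was at 22.7 to 26.6 normalised CPM in control, 33.3 to 35.5 in NAT10 RNAi discs and 33.1 to 35.5 in double RNAi discs. Its log2 fold change against control was 0.45 ± 0.069 in NAT10 RNAi discs (edgeR adjusted p = 2.88e-06) and 0.46 ± 0.068 in double RNAi discs (adjusted p = 6.83e-06). Between the RNAi genotypes it was 0.01 ± 0.065 (adjusted p = 0.92), with a sign that turned without double RNAi replicate 1.

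Spn77Ba (FBgn0262057), which limits melanisation of the trachea, passed in none of the comparisons, with log2 fold changes of -0.02 ± 0.030, -0.01 ± 0.030 and 0.01 ± 0.030 (edgeR adjusted p = 0.548, 0.776 and 0.843). Its libraries ran from 189 to 199.6 normalised CPM over all genotypes. Summed tracheal markers, by comparison, were at 1273 to 1300 in control, 877 to 891 in NAT10 RNAi discs and 1158 to 1191 in double RNAi discs. Most of that sum came from pio, with group means of 630, 299 and 505, and vvl, with 563, 517 and 564. The marker btl had 10.9, 7.66 and 10.1, and trh had 84.2, 57.8 and 96.9. All 4 tracheal markers were lower than control in NAT10 RNAi discs (29.6% of all tested genes). In double RNAi discs 1, trh, was higher than control and 1, pio, was lower (15.7% and 15.5%).

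Spn88Ea (FBgn0028984), a negative regulator of Toll signalling, was lower in double RNAi discs than in either other genotype. It was at 139 to 141 normalised CPM in control, 132 to 141 in NAT10 RNAi discs and 115.2 to 119.5 in double RNAi discs. Its log2 fold change was -0.25 ± 0.035 against control (edgeR adjusted p = 3.62e-06) and -0.21 ± 0.035 against NAT10 RNAi discs (adjusted p = 1.49e-05), whereas NAT10 RNAi discs did not pass against control (-0.04 ± 0.035, adjusted p = 0.32). Spn55B (FBgn0028983) passed in no comparison, with levels of 20.4 to 24.4 normalised CPM over all libraries and log2 fold changes of 0.06 ± 0.071, 0.15 ± 0.070 and 0.09 ± 0.069 (adjusted p = 0.457, 0.102 and 0.28).

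The 15 serpin genes that were not tested had at most 21 counts in a library. Spn28F and Spn28B had none in any library, where 3 counts correspond to 0.150 to 0.213 normalised CPM. Spn42Dd reached 1.15 normalised CPM, Spn85F 1.11, Spn88Eb 0.552 and Spn43Ab 0.551. Spn31A, Spn77Bb, Spn75F, Spn28Da, Spn77Bc, Spn53F, Spn43Ad, Spn38F and Spn28Db each stayed at or below 0.301 in every library. Of the 13 genes with the reproduction term, 11 were in this untested set.

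Counts of the untested genes added up to 11 to 21 in the control libraries, 13 to 44 in NAT10 RNAi discs and 37 to 42 in double RNAi discs. When no filter was applied, Spn43Ab (edgeR adjusted p = 0.00446), Spn42Dd (adjusted p = 0.0234) and Spn88Eb (adjusted p = 0.0359) were higher in double RNAi discs than in control, as was nec (adjusted p = 0.0398). Spn85F was lower (adjusted p = 0.0368), but in the 7 fits with a library left out that tested it this call was made in 0, with adjusted p of 0.0559 to 0.193. Spn43Ab was at 0.167, 0 and 0 normalised CPM in control and at 0.502, 0.494 and 0.551 in double RNAi discs, a few counts a library. All 7 tested fat body markers and 3 of 4 tested Malpighian tubule markers were also higher in double RNAi discs than in control (15.7% of all genes). The tubule markers summed to 0.410 to 0.781 in control, 0.667 to 1.03 in NAT10 RNAi discs and 17.2 to 19.8 in double RNAi discs. Uro and Alp4 were at 0 in control. The tubule marker NtR did not pass (edgeR adjusted p = 0.823), with group means of 0.561, 0.685 and 0.623. The part of these tissues in the serpin values was not tested. Spn85F shares 11.9% of its exon bases with CG5359 on the other strand.

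The proteases that serpins restrain were given from a list of the Toll and melanisation cascades, written with earlier results known. In NAT10 RNAi discs 4 of its 10 tested members rose and 3 fell, near the 32.5% and 29.6% of all genes, with a median log2 fold change of 0.01 against 0.03. The protease persephone (psh), the enzyme tied to nec, went from 0.273 ± 0.140 to 12.2 ± 2.31 normalised CPM (log2 5.49 ± 0.27, edgeR adjusted p = 1.19e-15) and was at 0.668 ± 0.128 in double RNAi discs. Easter (ea), a Spätzle-cleaving protease inhibited by Spn27A, rose by 1.33 ± 0.091 on the log2 scale (adjusted p = 1.43e-12). The melanisation protease MP1 and the Toll-pathway protease spirit had log2 fold changes of -0.98 ± 0.043 and -2.73 ± 0.21 (adjusted p = 8.67e-17 and 8.59e-11). Double RNAi discs had 1 of the 10 higher than control and 3 lower (15.7% and 15.5% of all genes), and 3 higher and 5 lower than NAT10 RNAi discs (28.4% and 28.3%).

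Of 7 tested genes in a list of the Toll ligand, receptor, factors and immune targets, 3 rose and 1 fell in NAT10 RNAi discs (32.5% and 29.6% of all genes), with a median log2 fold change of 0.13 against 0.03 over all genes. The NF-kappaB factor Dif rose by 3.82 ± 0.078 on the log2 scale and dorsal (dl) by 0.60 ± 0.050 (edgeR adjusted p = 3.6e-24 and 6.28e-11), while the receptor gene Tl had -0.34 ± 0.044 (adjusted p = 1.84e-07). The antifungal peptide gene Drs, a standard Toll target in fat body, was not tested and had group means of 0.0422, 0.150 and 0.120 normalised CPM. Of the 7, double RNAi discs had 2 higher than control and none lower (15.7% and 15.5% of all genes), and 1 higher and 3 lower than NAT10 RNAi discs (28.4% and 28.3%).

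Among prophenoloxidases and other melanin-forming enzymes, 0 of 7 tested genes rose and 5 fell in NAT10 RNAi discs (32.5% and 29.6% of all genes). The tyrosine hydroxylase gene ple had a log2 fold change of -3.50 ± 0.28, PPO2 -2.30 ± 0.22 and PPO1 -2.10 ± 0.25 (edgeR adjusted p = 3.61e-11, 9.27e-10 and 4.26e-08). With double RNAi 1 was higher than control and 3 were lower (15.7% and 15.5% of all genes), and against NAT10 RNAi discs 3 were higher and 0 lower (28.4% and 28.3%). PPO1 and PPO2 are also markers of crystal cells in the hemocyte list, whose summed level was lower in both RNAi genotypes, and the part of those cells was not tested.

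Of the furin genes, the proteases inhibited by Spn42Da, Fur1 had a log2 fold change of -0.18 ± 0.043 in NAT10 RNAi discs (edgeR adjusted p = 0.000991) and Fur2 -0.02 ± 0.027 (adjusted p = 0.54). Neither passed in double RNAi discs against control. Among other secreted inhibitors, thioester proteins included, 4 of 6 tested genes rose in NAT10 RNAi discs and 1 fell (32.5% and 29.6% of all genes). Tep4 rose by 1.16 ± 0.031 on the log2 scale, Tep2 by 0.66 ± 0.042 and Tep3 by 0.49 ± 0.048, and Mcr had -0.13 ± 0.025 (adjusted p = 1.82e-21, 3.54e-13, 2.01e-09 and 7.99e-05). With double RNAi 4 of the 6 were higher than control and none was lower (15.7% and 15.5% of all genes), and against NAT10 RNAi discs 2 were higher and 3 lower (28.4% and 28.3%).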

How the data were processed

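Gene-level estimated counts and FPKM per library were used as deposited by the authors. The submitters' processing notes name RSEM (no version), StringTie 1.3.1, HISAT2 2.1.0 and fastp 0.18.0, with no step for each. The sources used here give no build, so positions (1-based) come from BDGP6.54 by FlyBase identifier. The authors' comparison tables were not used.

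Estimated counts were rounded (8.19% to 9.11% of values in a library were not whole). One edgeR 4.0.16 fit (R 4.3.3) held all 9 libraries, using TMM scaling, filterByExpr and the robust quasi-likelihood test, with Benjamini-Hochberg adjustment over 8487 genes. The pipeline was also run on simulated counts in which few genes changed, a setting unlike these data, so that run supports no result here. Levels are normalised CPM, and FPKM was used between genes. The SE given with ± beside a log2 fold change is its size divided by the square root of the test's F value. It can be too small where a genotype has few counts. DESeq2 1.42.0, other scalings and filters, the 2 genotypes alone, a replicate block, an adjusted p under 0.01 and each library left out were alternatives. Tables and figures used Python 3.11.15, pandas 2.3.3, numpy 2.4.6 and matplotlib 3.10.9.

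Every serpin gene was accounted for, and tested members called with a change of at least 2-fold were given in full. At most 4 members of a list of pathway genes were named, those with the smallest adjusted p, apart from the untested Drs. Tissue markers were not named by that rule. Members and lists were chosen with earlier results of these data known. P-values weigh a difference against the spread between biological replicates of 100 discs, estimated from all 9 libraries with information shared across genes. Floors of 3 counts cover counting error only. How far reads are shared among the neighbouring serpin copies was not analysed here.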

Additional observations from a re-analysis of the deposited data

How the results depend on the processing

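Of 618 values of single serpin genes under the alternatives, 599 kept their direction and side of the threshold, and 28 of 39 results did so throughout. These values leave out the stricter threshold of 0.01. Spn42Db in double RNAi discs against control (edgeR adjusted p = 0.0169) and nec between the RNAi genotypes (adjusted p = 0.0191) did not pass it. The serpin genes higher in double RNAi discs than in control numbered 2 of 13 tested in the main fit (1335 of 8487 among all genes). With no filter they numbered 6 of 26 tested (1424 of 11885). A filter of 5 CPM in 3 libraries, which leaves out nec and Spn42Db, gave 1 of 11 (1120 of 7191). At an adjusted p under 0.01 the number was 1 of 13 (944 of 8487). Leaving out 1 library gave 1 to 3 of 13 to 14 tested (1168 to 1349 of 8573 to 8618 among all genes). The number was 1 without control replicate 3 or double RNAi replicate 3. The other counts with a library left out were 7 to 8 higher and 2 lower in NAT10 RNAi discs (2409 to 2770 and 2382 to 2679 among all genes). In double RNAi discs 4 to 5 were lower (1105 to 1312). Between the RNAi genotypes 2 were higher and 7 to 8 lower (2294 to 2521 and 2024 to 2504). Spn85F passed the filter in 7 of those fits and was lower in double RNAi discs than in NAT10 RNAi discs in all 7, but than in control in 0.

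Signs turned for 4 values that passed in no setting. Against control, log2 fold changes of double RNAi discs ran with a library left out from -0.035 to 0.0050 for Spn77Ba, from -0.055 to 0.0411 for Spn42Da and from -0.0051 to 0.28 for Spn42Dc, and with total counts alone Spn77Ba was at 0.0108 and Spn42Da at 0.0173. Spn28Dc between the RNAi genotypes ran from -0.0020 to 0.0496. Between the RNAi genotypes Spn27A passed without NAT10 RNAi replicate 1 (adjusted p = 0.0411, log2 -0.08). The cause was not tested. With total counts alone, 1613 of all genes were higher and 1044 lower in double RNAi discs than in control, in place of 1335 and 1318.

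With the replicate number as a block, 8 serpin genes were higher and 2 lower in NAT10 RNAi discs, 2 and 4 in double RNAi discs, and 2 and 7 between the RNAi genotypes, as without it. Among all 8487 genes tested, the block fit had 2762 and 2520, 1348 and 1327, and 2413 and 2426. Deviations of same-numbered libraries correlated at -0.0321 to 0.0710 (Pearson, across genes), and a library correlated best with its own number in 7 of 18 cases, so the numbers were not taken to pair the libraries. Levels near or under about 1 CPM (nec, Spn42Db, the untested members, and Spn100A in NAT10 RNAi discs) rest on few counts. The fold changes of Spn100A that use its NAT10 RNAi level share this limit.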

Other observations

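Protease inhibitors outside the serpin family were looked up after the results were known, as the 55 other entries annotated as serine-type endopeptidase inhibitors, of which 8 were tested. In NAT10 RNAi discs 2 were higher than control and 4 lower (32.5% and 29.6% of all genes tested), and in double RNAi discs 2 and 3 (15.7% and 15.5%). Double RNAi discs had 6 higher and 2 lower than NAT10 RNAi discs (28.4% and 28.3%). The 2 higher in NAT10 RNAi discs were Tep4, which is also in the list of other secreted inhibitors above, and CG2816. Their log2 fold changes were 1.16 ± 0.031 and 2.74 ± 0.60 (edgeR adjusted p = 1.82e-21 and 0.000332), CG2816 from 0.128 normalised CPM in control. Of the lowered genes, CG5639 was at 37.6 ± 2.61 normalised CPM (mean ± SD, n = 3) in control, 0.415 ± 0.224 in NAT10 RNAi discs and 22.6 ± 1.61 in double RNAi discs. Against control its log2 fold change was -6.47 ± 0.16 with NAT10 RNAi (edgeR adjusted p = 3.54e-22) and -0.74 ± 0.081 with double RNAi (adjusted p = 5.6e-08), where Spn100A had -7.14 and -0.75. Papilin (Ppn), an extracellular matrix protein, was at 1184 ± 6.35, 379 ± 2.14 and 883 ± 26.8 normalised CPM, with log2 fold changes of -1.64 ± 0.027 and -0.42 ± 0.026 (adjusted p = 1.97e-26 and 6.07e-13).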
